A study of Danio rerio with 12 samples.

Results

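The loss of smchd1 was examined in zebrafish embryos at the sphere stage, a blastula stage at which the embryo's own genome has begun to be transcribed. The comparison took in all sphere libraries of the series, 3 of wildtype (wt) and 3 of maternal-zygotic smchd1 null embryos (MZ smchd1), which are 6 of its 12 libraries, and all genes in the tables. Of 31462 gene identifiers, 16314 passed a filter on low counts and were tested. Both groups were of the AB strain. MZ smchd1 embryos carried the CRISPR allele lof1, an out-of-frame change in the GHKL ATPase domain, and came from mutant mothers, so that neither the egg nor the embryo could supply intact Smchd1. Each library held the poly-A RNA of a pool of embryos of the labelled stage. A single allele was sequenced, so the effects of the allele and of the line that carries it cannot be told apart. The labels do not say whether the pools came from separate clutches, and p-values therefore measure the spread between these pools. The other 6 libraries, 3 of each genotype at the 4-8-cell stage, hold the RNA that the mother placed in the egg.

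Smchd1 is a chromatin protein of the extended SMC family, best known in mammals for its part in keeping the inactive X chromosome, imprinted clusters and repeat arrays silent. A fish embryo first lives on maternal RNA. During the maternal-to-zygotic transition part of that RNA is destroyed while the first zygotic genes, many of them transcription factors, signalling ligands and genes of the outer enveloping layer, are switched on. A sphere library is therefore a mixture of maternal remnants and new zygotic transcripts, and these were described apart.

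The sphere libraries held between 7829742 (MZ smchd1 1) and 17266229 (wt 1) expected counts. The stage labels were checked on markers. Transcripts of mxtx2, a regulator of the yolk syncytial layer, averaged 182 counts per 1000000 (CPM) ± 36.5 (SD, n = 3) in wt sphere embryos against 0.19 CPM at the 4-8-cell stage, and buc, which organises germ plasm in the oocyte, averaged 325 CPM ± 41.8 (SD, n = 3) at sphere against 969 CPM in 4-8-cell embryos. Other egg markers were less uniform in wt. From the 4-8-cell stage to sphere bmp15, dazl and btg4 fell from 179, 261 and 724 CPM to 42.0, 74.5 and 99.9 CPM. Smaller falls were seen for gdf9 (49.9 to 34.4 CPM) and zar1 (45.1 to 27.5 CPM), and zp2.1 rose from 5.18 to 9.39 CPM. The smchd1 transcript stood at 286, 201 and 176 CPM in the wt sphere libraries. In the MZ smchd1 sphere libraries it was at 3.36, 3.86 and 3.38 CPM, as the labels say. The first principal component, with 49.6% of the variance, separated the genotypes. MZ smchd1 libraries 2 and 3 correlated at 0.992, above every other pair, and still differed beyond sampling noise. Lists of ovarian follicle, blood and testis markers, with 5, 4 and 7 members tested, held no call, and none of 20 liver and yolk markers was expressed enough to be tested. A ribosomal RNA gene that was left out of all tests took 0.309% to 3.98% of counts in MZ smchd1 and 0.006% to 0.022% in wt libraries. Its part in the results was not tested.

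Of the genes tested, 605 were higher and 664 lower in MZ smchd1 embryos (edgeR quasi-likelihood test, Benjamini-Hochberg adjusted p under 0.05), which is 7.78% in either direction, 3.71% higher and 4.07% lower. In 764 of them (4.68% of the genes tested) the change was larger than 2-fold, and 1266 of the calls had genotypes without overlap, which 34.8% of the whole set also had. With library size alone as the scale the split turned to 747 higher and 451 lower. The count fell to 84 without MZ smchd1 library 2, to 108 without MZ smchd1 library 3 and to 427 without wt library 1. Bulk libraries give shares of a total, so fewer cells of a type and less RNA per cell cannot be told apart.

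Genes were then sorted by their course between the stages, with the mean of both genotypes. Zygotic genes had under 0.5 CPM at the 4-8-cell stage and at least 2 times as much at sphere. Maternal-zygotic genes had more in the egg and at least 2 times that level at sphere. Maternal held genes stayed within 2-fold, and maternal falling genes dropped to 0.5 of the egg level or less. Held genes made up most of the list, with 12110 tested, beside 1662 falling, 1268 zygotic and 1241 maternal-zygotic genes; 33 tested genes fit none of these and stayed at a trace.

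The classes did not move alike. Among zygotic genes 36 (2.84%) were higher and 64 (5.05%) lower, and the median log2 fold change was -0.22 against -0.003 over all genes tested. Among maternal falling genes 117 (7.04%) were higher and 32 (1.93%) lower, with a median of 0.32, and 72.1% of the class had a positive fold change. Maternal-zygotic genes gave 48 (3.87%) higher and 57 (4.59%) lower, and held genes 403 (3.33%) higher and 510 (4.21%) lower, but in both of these classes the larger side changed when no scaling factor was used (55 higher and 43 lower, 517 higher and 321 lower). With limma on the deposited TPM, at a pseudocount of 1 or 0.1, zygotic calls were nearly even, 46 higher and 51 lower or 45 and 46, and falling calls were 118 and 22 or 114 and 22. The falling median stayed positive in each of the 6 fits that left out a library, between 0.25 and 0.46, and the zygotic median stayed negative, between -0.38 and -0.10. The counts of calls were less steady. Without MZ smchd1 library 2 only 9 falling genes were higher and 10 lower, and without MZ smchd1 library 3 these were 10 and 9; without wt library 1 they were 30 and 17. For zygotic genes the higher and lower calls were 5 and 7, 7 and 6, and 15 and 24 in the same 3 fits.

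**Figure D1:**
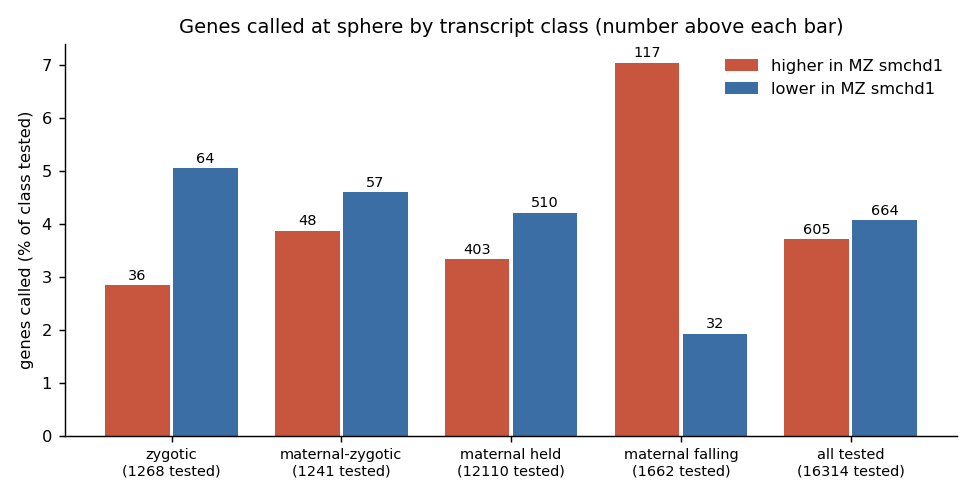
Percentage of the tested genes of each transcript class called higher (red) or lower (blue) in MZ smchd1 sphere embryos, with the number of genes above each bar. The falling class stands out with 117 genes higher and 32 lower, while the zygotic class has 36 higher and 64 lower.

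The levels of each class were also summed in every library, over all its genes, tested or not. These were 6095 zygotic, 1241 maternal-zygotic, 12604 held and 2073 falling genes. Falling transcripts summed to 33260, 32749 and 41818 CPM in wt and to 42699, 43940 and 51515 CPM in MZ smchd1 sphere embryos. The genotypes did not overlap and the ratio was 1.28 (two-sided exact permutation test, p = 0.1, the smallest that 3 against 3 libraries allow). At the 4-8-cell stage the same transcripts differed little, with a ratio of 1.02. The sum at sphere was 0.339 of that at the 4-8-cell stage in wt and 0.428 in MZ smchd1 embryos.

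Zygotic transcripts summed to 20032, 22428 and 18426 CPM in wt and to 18838, 17737 and 13454 CPM in MZ smchd1 sphere embryos. MZ smchd1 library 1 lay above wt library 3, so the groups overlapped, and the ratio was 0.822 (exact permutation p = 0.2). Within each genotype library 3 held the most falling and the least zygotic RNA, and the ratio of the falling to the zygotic sum ran from 1.46 to 2.2695 in wt and from 2.2667 to 3.83 in MZ smchd1, with MZ smchd1 library 1 just below wt library 3. How far the pools differed in age was not tested. Maternal-zygotic transcripts summed to a ratio of 0.883 (exact permutation p = 0.4), with overlap.

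**Figure D2:**
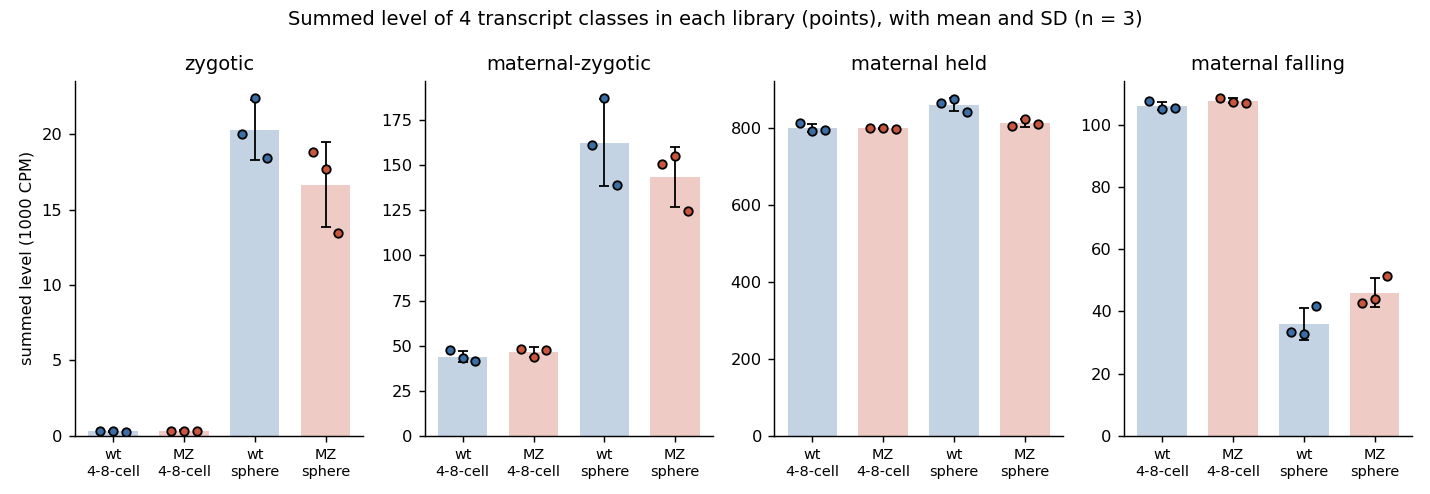
Summed level of each transcript class in units of 1000 CPM; points are libraries, bars the mean and whiskers the SD of 3 libraries of wt (blue) and MZ smchd1 (red) at both stages. At sphere the falling class sits between 32749 and 41818 CPM in wt and between 42699 and 51515 CPM in MZ smchd1, while the zygotic class overlaps between the genotypes.

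Of the 36 zygotic transcripts that rose in MZ smchd1 embryos all but 1 changed more than 2-fold, with a median log2 fold change of 3.05. Of the 18 that rose more than 8-fold, 17 averaged under 0.5 CPM in wt. The filter on low counts took the mean of both genotypes, so these 17 passed it through their MZ smchd1 level. The gene arhgap25, which codes for a GTPase-activating protein, was at 0.24, 0.38 and 0.24 CPM in wt and at 5.29, 5.17 and 7.35 CPM in MZ smchd1 embryos (log2 fold change 4.35, SE 0.39, edgeR adjusted p = 0.00338). All MZ smchd1 libraries were far above all wt libraries, and the rule for naming genes by class required that they not overlap. The S100 family gene s100s, which codes for a calcium-binding protein, had 2 counts over the 3 wt libraries and 210 over the 3 MZ smchd1 libraries, a ratio of depth-corrected counts of 137 with a counting interval from 37.4 to 1138. The prostaglandin reductase gene ptgr1.2 had 2 and 54 counts (ratio 35.2, interval 9.29 to 298). The actin regulator wipf3, of the WASP-interacting family, stood at 0.12, 0.19 and 0.06 CPM in wt and at 1.42, 1.60 and 1.65 CPM in MZ smchd1 embryos (log2 fold change 3.59, SE 0.50, edgeR adjusted p = 0.0106). Such levels are low, and the intervals cover counting error only. The class took the mean of both genotypes, and none of the genes named here grew 2-fold in wt. Their egg and sphere means in wt were 0.43 and 0.28 CPM (arhgap25) and 0.18 and 0.04 CPM (s100s). For ptgr1.2 they were 0.03 and 0.04 CPM, and for wipf3 0.45 and 0.12 CPM. These genes met the limit for a rise through their MZ smchd1 level.

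Zygotic transcripts that fell were partly of a like low level. STYXL2, which codes for a phosphatase-like protein, was at 9.33, 5.64 and 3.86 CPM in wt and at 0.13, 0.18 and 0.38 CPM in MZ smchd1 embryos (log2 fold change -4.68, SE 0.55, edgeR adjusted p = 0.00703). CYP4V2, a cytochrome P450 that acts on fatty acids, dropped by 3.71 on the log2 scale (SE 0.49), and il21r.1, an interleukin receptor gene, by 2.76 (SE 0.37), each with an edgeR adjusted p = 0.0101. The zinc finger gene drll.2 was more abundant, at 18.4, 23.1 and 18.05 CPM in wt against 5.68, 2.5 and 3.00 CPM in MZ smchd1 embryos. No library of MZ smchd1 reached any wt library for these 4 genes, as the rule for naming them required. The calls of CYP4V2, il21r.1 and drll.2 were lost without MZ smchd1 library 2 or 3, and that of STYXL2 without library 2.

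**Figure D3:**
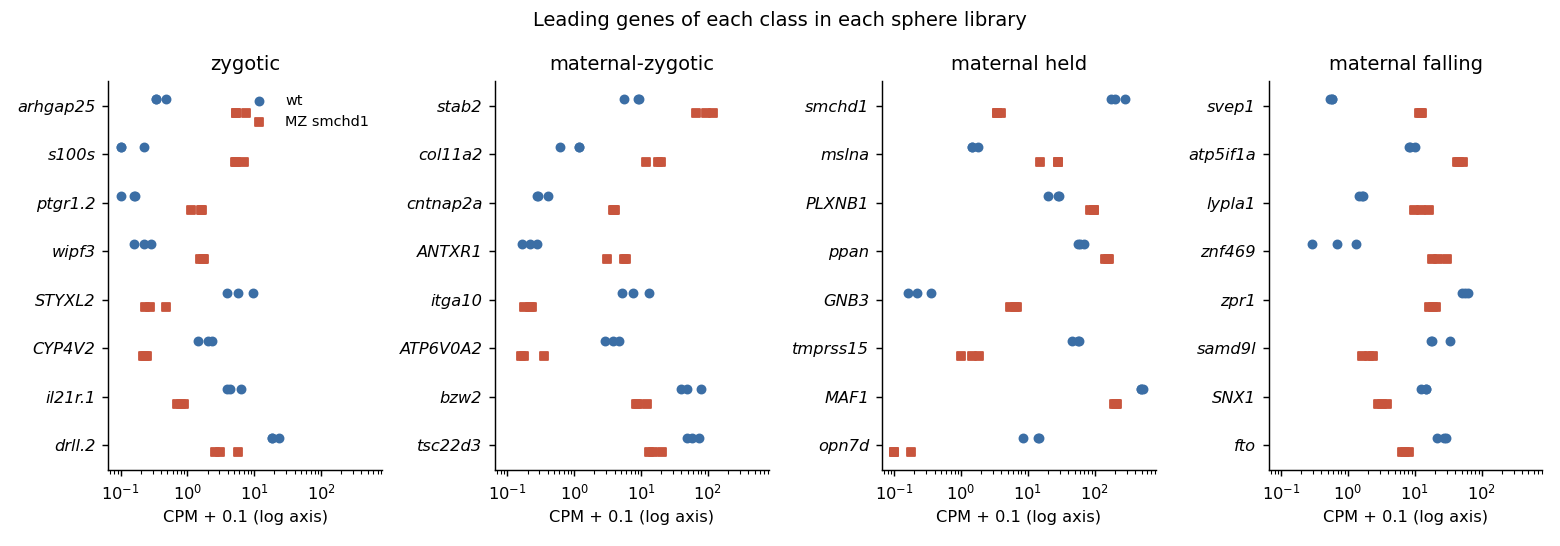
Levels in each sphere library (CPM + 0.1, log axis) of the called genes with the smallest adjusted p in each class and direction, wt as blue circles and MZ smchd1 as red squares. The genotypes do not overlap for any gene shown, which the rule for choosing them required.

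Within the zygotic class most of the abundant genes did not pass the test. Ranked by their mean over all 6 libraries, the 50 most abundant zygotic genes had 0 calls higher and 3 lower, and 45 of them differed by less than 1.5-fold. Their fold changes were nonetheless mostly negative, in 39 of 50, with a median of -0.21. The most abundant was drll.3, of the same zinc finger family as drll.2, at 865, 1070 and 833 CPM in wt and 905, 929 and 728 CPM in MZ smchd1 embryos (log2 fold change -0.11, SE 0.14), with overlap between the groups. Likewise tbx16, a T-box factor of mesoderm, had a log2 fold change of 0.05 (SE 0.32) and the SoxB1 gene sox19a one of -0.02 (SE 0.12). The 3 that fell were si:zfos-44a5.1, si:dkey-146c18.5 and ENSDARG00000104638, which have no name beyond a clone or an identifier and are given because they were the only calls of the 50. For si:dkey-146c18.5 the wt libraries stood at 213, 222 and 166 CPM and the MZ smchd1 libraries at 63.6, 54.0 and 48.2 CPM (log2 fold change -1.86, SE 0.16, edgeR adjusted p = 0.00338).

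Among 29 tested members of a list of the first zygotic transcription factors none fell at the adjusted threshold in edgeR, 5 had an unadjusted p under 0.05, and the median was -0.04. The ventralising genes vox (log2 fold change -0.32, SE 0.49) and vent (-0.85, SE 0.55) did not pass, nor did the neural crest and pluripotency factor foxd3 (0.32, SE 0.23). The 3 vox values of wt ranged from 67.9 to 212 CPM, and those of MZ smchd1 from 53.4 to 164 CPM, so differences of this size were not resolved.

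Genes of the enveloping layer, the first epithelium of the fish embryo, had mostly negative fold changes. Of 23 tested members 5 had a positive fold change, 1 rose and 2 fell (13.0%), and the median of -0.39 was below that of all genes. The summed level was 4699, 5685 and 4400 CPM in wt and 4313, 3966 and 3231 CPM in MZ smchd1 embryos. No MZ smchd1 library reached any wt library, and the sum was 0.779 of wt (two-sided exact permutation test, p = 0.1). The TMM factors were 1.032 for MZ smchd1 library 1 and 1.003 for wt library 3, so this gap does not hold on library size alone. Negative fold changes also prevailed among the 50 most abundant zygotic genes (39 of 50) and maternal-zygotic genes (43 of 50). The tight junction gene cldnb fell from 56.0, 43.7 and 42.8 CPM to 31.1, 25.5 and 18.3 CPM (log2 fold change -0.93, SE 0.22, edgeR adjusted p = 0.0439), and pfn1, an actin-binding profilin, fell by 0.97 on the log2 scale (SE 0.17, edgeR adjusted p = 0.0200). GRHL2, a regulator of epithelial genes, rose from a trace, 0.30, 0.38 and 0.06 CPM, to 0.90, 2.26 and 4.43 CPM. Keratin and adhesion members did not pass the test: krt18a.1 had a log2 fold change of -0.54 (SE 0.27), and epcam, an epithelial adhesion gene, one of -1.09 (SE 0.40). The call of pfn1 was lost without MZ smchd1 library 2 or 3, and those of cldnb and GRHL2 in 5 of the 6 fits that left out a library.

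In a list written for the BMP pathway, which patterns the ventral side, 2 of 23 tested members rose and 2 fell, 17.4% against 7.78% of all genes. The dorsal BMP ligand admp rose from 32.1, 46.9 and 30.9 CPM to 97.1, 84.2 and 62.3 CPM (log2 fold change 1.15, SE 0.22, edgeR adjusted p = 0.0258). The kinase gene pkdccb, with no count in any 4-8-cell library, fell from 18.2, 18.1 and 15.9 CPM to 5.16, 2.2 and 2.63 CPM (log2 fold change -2.42, SE 0.34, edgeR adjusted p = 0.0109). Both are zygotic, and neither overlapped between genotypes. Pkdccb was counted as a member of the list, and its part in BMP signalling was not tested. The receptors moved in opposite directions: acvr1l, a type I receptor laid down in the egg, fell by 0.74 on the log2 scale (SE 0.10, edgeR adjusted p = 0.0101), while BMPR1A rose by 0.94 (SE 0.14, edgeR adjusted p = 0.0124). Acvr1l was already called lower in the egg (log2 fold change -0.36, edgeR adjusted p = 0.0410), and its interaction did not pass. The call of admp at sphere held in 1 of the 6 fits with a library left out, and each of the other calls in 4 of 6.

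In the Nodal pathway, which induces mesoderm and endoderm, 0 of 28 tested members rose and 1 fell (3.57%) in edgeR, 7 had an unadjusted p under 0.05, and 21 had a negative fold change. The member that fell was gdf3, the maternally supplied partner of the Nodal ligands. It stood at 505, 470 and 527 CPM in wt and at 259, 249 and 234 CPM in MZ smchd1 embryos (log2 fold change -1.02, SE 0.09, edgeR adjusted p = 0.00350), with no overlap, and it passed in all 6 fits with a library left out. At the 4-8-cell stage the order was the other way round, with 334, 371 and 293 CPM in wt and 471, 418 and 494 CPM in MZ smchd1 embryos (log2 fold change 0.47, edgeR adjusted p = 0.0620). The genotype difference changed between stages by -1.48 on the log2 scale (interaction in edgeR, adjusted p = 0.00241). The ligand genes ndr1 (log2 fold change -0.53, SE 0.19) and ndr2 (-0.96, SE 0.26), which were maternal-zygotic here, did not pass. In a list of 27 tested genes of the dorsal organiser and Wnt signalling edgeR called none, with 3 at an unadjusted p under 0.05. The FGF, retinoic acid and Notch list, with 25 tested, had 1 call (4%), notch2. It rose by 1.44 on the log2 scale (SE 0.35, edgeR adjusted p = 0.0475) and passed in 1 of the 6 fits that left out a library.

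Maternal-zygotic genes grew between the stages in the mean of both genotypes, which need not hold in each. The gene stab2, a scavenger receptor for hyaluronan known from endothelium, was at 9.02, 9.15 and 5.52 CPM in wt and 65.6, 94.8 and 117 CPM in MZ smchd1 sphere embryos (log2 fold change 3.55, SE 0.28, edgeR adjusted p = 0.00326). In wt embryos it did not grow, with a mean of 10.9 CPM at the 4-8-cell stage and 7.90 CPM at sphere. On the log2 scale the collagen gene col11a2 rose by 4.2 (SE 0.38) and the contactin-associated gene cntnap2a by 4.07 (SE 0.40). ANTXR1, a receptor that anthrax toxin uses, rose by 5.22 (SE 0.53). It was already called higher in the egg (log2 fold change 4.21, edgeR adjusted p = 0.0177), and its interaction did not pass. None of these genes grew in wt: the egg and sphere means were 1.01 and 0.88 CPM (col11a2), 0.60 and 0.22 CPM (cntnap2a) and 0.12 and 0.12 CPM (ANTXR1). In the egg col11a2 was at 0.26, 1.79 and 0.98 CPM in wt and 14.3, 2.81 and 2.91 CPM in MZ smchd1 embryos, and did not pass. Among those that fell, itga10, an integrin that binds collagen, had 5.11, 13.2 and 7.42 CPM in wt and 0.13, 0.12 and 0.08 CPM in MZ smchd1 embryos (log2 fold change -6.23, SE 0.57, edgeR adjusted p = 0.00348). The vesicular proton pump subunit gene ATP6V0A2 dropped by 4.96 (SE 0.57), the translation factor gene bzw2 by 2.5 (SE 0.30) and tsc22d3, a target of glucocorticoids, by 1.91 (SE 0.23). In the egg ATP6V0A2 was at 0, 0 and 4.81 CPM in wt and 0, 0.06 and 0.06 CPM in MZ smchd1 embryos. Its egg level thus came from 1 wt library. The rule for naming these 8 genes required no overlap between genotypes. Of the 8, 6 passed in all 6 fits with a library left out, while ATP6V0A2 and tsc22d3 failed without MZ smchd1 library 2.

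The 50 most abundant maternal-zygotic genes had 0 calls higher and 4 lower. Of the 50, 43 had a negative fold change and 7 a positive one, with a median of -0.19. In 13 every MZ smchd1 library lay below every wt library (17.4% over all genes), and in 0 above (17.4%). The pluripotency factor nanog stood at 1930, 2108 and 1751 CPM in wt and 2032, 2045 and 1785 CPM in MZ smchd1 embryos (log2 fold change 0.02, SE 0.11), and both groups spanned the same range. The signal recognition particle RNA rn7sl1, a product of RNA polymerase III, fell from 1854, 1728 and 1239 CPM to 811, 829 and 680 CPM (log2 fold change -1.06, SE 0.16, edgeR adjusted p = 0.0142). As a transcript without a poly-A tail, its level also depends on what passed the poly-A selection, which was not tested. Nanog and rn7sl1 lie outside the rule for named genes and were chosen after their values were seen.

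Most of the maternal falling transcripts had a positive fold change, and a small part passed the test. Of the 50 most abundant falling genes 9 rose and none fell, 45 had a positive fold change, and in 20 every MZ smchd1 library lay above every wt library (17.4% over all genes). Among the 9, tacc3, a spindle protein gene, rose from 165, 149 and 204 CPM to 308, 387 and 415 CPM (log2 fold change 1.1, SE 0.16, edgeR adjusted p = 0.0116). The mitotic kinase gene aurkb went from 90.0, 88.3 and 104 CPM to 128, 147 and 162 CPM (log2 fold change 0.63, SE 0.13, edgeR adjusted p = 0.0282), setdb1a, an H3K9 methyltransferase gene, rose by 0.59 (SE 0.11) and the DNA repair gene brca2 by 0.67 (SE 0.15). The calls of aurkb and setdb1a held in 3 of the 6 fits that left out a library, and that of brca2 in 1. The catalase gene cat rose by 1.15 (SE 0.17) and the formin gene fhdc3 by 1.25 (SE 0.14). The DNA methyltransferase gene dnmt1, the most abundant of the class, was at 644, 595 and 809 CPM in wt and 882, 880 and 1078 CPM in MZ smchd1 embryos, without overlap, and did not pass (log2 fold change 0.47, SE 0.14, edgeR adjusted p = 0.0823). Top2a, which codes for a topoisomerase, had the opposite sign at -0.55 (SE 0.14, edgeR adjusted p = 0.0508). Tacc3, cat, fhdc3, dnmt1 and top2a lie outside the rule for named genes and were chosen after their values were seen.

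Single falling transcripts changed more. Svep1, an extracellular matrix gene, was at 0.48, 0.44 and 0.47 CPM in wt and at 12.9, 11.6 and 12.2 CPM in MZ smchd1 embryos (log2 fold change 4.69, SE 0.28, edgeR adjusted p = 0.00079). In the egg it was at 26.9, 4.73 and 0.31 CPM in wt and 48.7, 22.3 and 21.3 CPM in MZ smchd1 embryos. The inhibitor of the mitochondrial ATP synthase, atp5if1a, rose from 9.87, 8.27 and 7.96 CPM to 46.1, 52.1 and 43.1 CPM (log2 fold change 2.44, SE 0.17, edgeR adjusted p = 0.00161), lypla1, an acyl-protein thioesterase gene, by 3.08 (SE 0.29) and the zinc finger gene znf469 by 5.13 (SE 0.54). Each of these 4 passed whichever library was left out.

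Falling transcripts that were lower in MZ smchd1 embryos included zpr1, a zinc finger gene, at 61.4, 56.1 and 50.2 CPM in wt and 20.7, 16.5 and 18.9 CPM in MZ smchd1 embryos (log2 fold change -1.58, SE 0.15, edgeR adjusted p = 0.00363). Samd9l, known in mammals as an interferon-induced antiviral gene, fell by 3.59 (SE 0.35), SNX1, a sorting nexin of the endosome, by 2.14 (SE 0.24), and fto, a demethylase of m6A in RNA, by 1.83 (SE 0.21). Zpr1 and samd9l were already called lower in the egg (log2 fold change -1.10 and -2.07, edgeR adjusted p = 0.0443 and 0.0368), and their interactions did not pass. SNX1 and fto did not pass in the egg, where fto was at 36.8, 55.4 and 37.6 CPM in wt and 51.3, 58.8 and 47.2 CPM in MZ smchd1 embryos. The interaction was -2.10 for fto (edgeR adjusted p = 0.00946) and -1.89 for SNX1 (edgeR adjusted p = 0.0128). The SUMO gene sumo2a had 299 counts over the wt libraries and 2 over the MZ smchd1 libraries at sphere, a ratio of 115 with an interval from 31.5 to 951. In the egg it was at 21.9, 14.5 and 0 CPM in wt and 18.8, 20.9 and 17.8 CPM in MZ smchd1 embryos, so 1 wt library alone lacked it there.

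Held transcripts made up the largest class, and their sum was 0.944 of wt (two-sided exact permutation test, p = 0.1), or 1.00 with no scaling factor. PLXNB1, a semaphorin receptor gene, rose from 28.0, 29.3 and 19.95 CPM to 85.6, 97.4 and 96.5 CPM (log2 fold change 1.86, SE 0.17, edgeR adjusted p = 0.00338). The ribosome biogenesis gene ppan rose from 69.1, 55.5 and 59.6 CPM to 143, 158 and 164 CPM (log2 fold change 1.33, SE 0.12), mslna, a mesothelin gene, by 4.01 (SE 0.33) and the G protein beta subunit gene GNB3 by 5.35 (SE 0.48), each with an edgeR adjusted p = 0.00338. In the egg GNB3 was at 0.43, 0.65 and 3.00 CPM in wt and 0.30, 0 and 7.75 CPM in MZ smchd1 embryos. Besides smchd1 itself (log2 fold change -5.95, SE 0.23), MAF1, a repressor of RNA polymerase III, fell from 493, 529 and 497 CPM to 207, 212 and 196 CPM (log2 fold change -1.30, SE 0.09, edgeR adjusted p = 0.00158). All MZ smchd1 libraries were below all wt libraries, as the rule for naming it required. In the egg MAF1 did not pass (log2 fold change 0.02, edgeR adjusted p = 0.953), and the interaction of -1.32 did (edgeR adjusted p = 0.00855). The opsin gene opn7d had 612 counts over the wt and 1 over the MZ smchd1 libraries at sphere. The ratio was 469, with an interval from 83.9 to 18567. Opn7d was already called lower in the egg (log2 fold change -7.96, edgeR adjusted p = 0.00662). There it was at 11.98, 9.85 and 11.47 CPM in wt and 0, 0.117 and 0 CPM in MZ smchd1 embryos. Its interaction did not pass (edgeR adjusted p = 0.864).

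The 50 most abundant held genes, which include the housekeeping transcripts of the embryo, had 6 calls, all lower, and 44 of 50 had a negative fold change with a median of -0.25. The chaperone gene hsp90ab1 fell from 1710, 2016 and 1532 CPM to 1135, 1012 and 1011 CPM (log2 fold change -0.74, SE 0.12, edgeR adjusted p = 0.0179), and the elongation factor gene eef2b from 2280, 2083 and 1674 CPM to 1278, 1286 and 1210 CPM (log2 fold change -0.68, SE 0.13, edgeR adjusted p = 0.0239). Both were chosen after their values were seen. The beta-actin gene actb1 was at 2217, 2037 and 1949 CPM in wt and 1624, 1693 and 1484 CPM in MZ smchd1 embryos and did not pass (edgeR adjusted p = 0.0601), although the groups did not overlap.

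Among maternal gene lists, that of RNA binding and decay factors had 60 tested members, of which 3 rose and 4 fell with a median of 0.01. Zfp36l2, which codes for a protein that recruits the deadenylation machinery to AU-rich RNAs, rose from 29.2, 40.6 and 57.3 CPM to 111, 104 and 119 CPM (log2 fold change 1.39, SE 0.23, edgeR adjusted p = 0.0166). Zfp36l2 was already called higher in the egg (log2 fold change 0.43, edgeR adjusted p = 0.0443), and its interaction did not pass. The helicase gene ddx6 rose by 0.46 (SE 0.10) and tob1b, a gene of the antiproliferative BTG/TOB family, by 0.67 (SE 0.16). Ddx6 and tob1b lie outside the rule for named genes and were chosen after their values were seen. Mettl3, which codes for the catalytic subunit that writes m6A, fell by 0.48 on the log2 scale (SE 0.09), dis3l2, an exoribonuclease gene, by 0.45 (SE 0.09), beside fto above. Another member that fell is not named here. The calls of zfp36l2, mettl3 and dis3l2 held in 4, 3 and 3 of the 6 fits that left out a library. The egg adaptor of deadenylation btg4 was at 55.9, 92.0 and 152 CPM in wt and 166, 203 and 282 CPM in MZ smchd1 embryos, without overlap, and did not pass (edgeR adjusted p = 0.0865). The list therefore held members of both directions, at 11.7% called against 7.78% of all genes.

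Of 42 tested oocyte and egg genes 2 rose and 1 fell, 7.14% against 7.78% of all genes. Patl2, an RNA-binding gene of oocytes, rose from 170, 200 and 216 CPM to 290, 391 and 431 CPM (log2 fold change 0.92, SE 0.16, edgeR adjusted p = 0.0205) and figla, a transcription factor of the oocyte, by 1.32 (SE 0.28), while pabpc1l, the poly-A binding protein of eggs, fell by 0.61 (SE 0.10). These calls held in 3, 2 and 4 of the 6 fits that left out a library. Of 25 tested germ plasm and germ cell genes none rose and 2 fell (8%, against 7.78% of all genes). Piwil1, a Piwi protein gene, fell by 0.82 (SE 0.15) and ddx4, the vasa helicase gene, by 0.40 (SE 0.10). The call of ddx4 was lost in each of the 6 fits that left out a library. Among 29 maternal activators of zygotic transcription 1 fell (3.45%, below the share of all genes). This was NFYA, a subunit of the CCAAT-binding factor. Its level went from 77.2, 75.4 and 67.8 CPM to 50.5, 48.0 and 50.9 CPM (log2 fold change -0.56, SE 0.11, edgeR adjusted p = 0.0266).

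In 4 lists of chromatin genes between 8.33% and 11.1% of the members tested were called, near the 7.78% of all genes. Of 36 tested SMC complex genes, smchd1 included, 2 rose and 2 fell. Besides smchd1, nsmce4a, a subunit of the SMC5/6 complex, fell by 0.59 (SE 0.12), and the cohesin genes STAG1 and esco1, a subunit and an acetyltransferase, rose by 0.84 (SE 0.20) and 0.54 (SE 0.13). In the H3K9 methylation list, with 31 tested, setdb1a rose, its partner atf7ip fell by 0.61 (SE 0.14) and the demethylase gene kdm4b fell by 0.85 (SE 0.16). Of 42 tested Polycomb and trithorax genes CBX8, men1 and phc2b rose by 0.73, 0.59 and 1.22 on the log2 scale and aebp2 fell by 0.59. In the DNA methylation list, with 24 tested, the methyl-CpG reader gene zbtb4 rose by 1.62 (SE 0.31) and MBD3, of the NuRD complex, fell by 0.54 (SE 0.13). MBD3 was already called lower in the egg (log2 fold change -0.60, edgeR adjusted p = 0.0101), and its interaction did not pass. None of the sphere calls in this paragraph other than that of smchd1 passed in more than 3 of the 6 fits with a library left out.

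Of 47 hox genes, which specify position along the body axis, 7 passed the filter on low counts and were tested. Of these 4 were called, all higher (57.1%, against 7.78% of all genes). The filter took the mean of both genotypes, so a member low in wt could pass through its MZ smchd1 level. These genes were the object of the study, so the count is no independent evidence of direction. None of the 7 was zygotic by the rule above: 5 were held and 2 falling. That rule takes the mean of both genotypes in the egg, which MZ smchd1 embryos alone can supply. Hoxc10a was at 0.30, 0.38 and 1.25 CPM in wt and at 4.13, 7.67 and 5.55 CPM in MZ smchd1 sphere embryos (log2 fold change 3.16, SE 0.57, edgeR adjusted p = 0.0223). At the 4-8-cell stage it was at 0.21, 0.65 and 0.31 CPM in wt and 7.24, 5.79 and 6.59 CPM in MZ smchd1 embryos. The wt mean there, 0.39 CPM, lay under the 0.5 CPM limit. Hoxb2a, a falling gene, was at 1.80, 1.19 and 1.24 CPM in wt and 9.64, 12.3 and 19.5 CPM in MZ smchd1 4-8-cell embryos. In MZ smchd1 sphere embryos it was at 1.94, 1.60 and 1.95 CPM. It stayed above the 0.36, 0.44 and 0.53 CPM of wt sphere embryos (log2 fold change 2.01, SE 0.39, edgeR adjusted p = 0.0258). The 4 calls at sphere were lost without wt library 1 and without MZ smchd1 library 2 or 3. In the egg hoxc10a, hoxb2a and hoxc11a were already called higher (edgeR adjusted p = 0.0113, 0.0103 and 0.0151), while hoxd9a did not pass (edgeR adjusted p = 0.106).

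The other lists had few calls. Of 25 tested p53 and DNA damage genes 3 (12%) rose, ddb2, sesn1 and brca2, by 0.84 (SE 0.15), 0.78 (SE 0.17) and 0.67 (SE 0.15) on the log2 scale, with calls that held in 3, 1 and 1 of the 6 fits that left out a library. Of 82 ribosomal protein genes none rose and 4 fell (4.88%, against 7.78% of all genes). Rpl12 fell by 1.04 (SE 0.16) and rps14, RPL18 and rps20 by 0.43 to 0.50 on the log2 scale. In all 42 of 82 had a positive fold change. Of 15 tested MHC class I and antigen processing genes 2 rose and 1 fell (20%). The class I gene mhc1uba had no count in the 3 wt sphere libraries and 83 in the MZ smchd1 libraries, at least 36.1-fold higher against a floor of 3 counts over the group. Its MZ smchd1 sphere values were uneven, at 0.39, 2.67 and 2.63 CPM, and the call was lost without wt library 1. In the egg it was at 0, 0.70 and 0 CPM in wt and 0.80, 0.06 and 0 CPM in MZ smchd1 embryos, so pools of the same genotype differed. The guanylate-binding gene gbp1 rose from 1.68, 1.69 and 1.96 CPM to 8.65, 18.1 and 13.2 CPM (log2 fold change 2.90, SE 0.33, edgeR adjusted p = 0.00695). It was the sole call of 14 tested interferon response genes (7.14%). The list of SUMO and ubiquitin precursors also held SUMO protease genes. Of its 30 tested members the protease genes senp6b and senp3a rose, and the protease gene senp3b and the SUMO gene sumo2a fell (13.3%). Of 34 cell cycle genes aurkb rose and wee2 fell (5.88%). The 2 tested clustered protocadherins, with a median of -0.82, and 21 cell movement genes had no call in edgeR, with 0 and 6 at an unadjusted p under 0.05. The 13 mitochondrially encoded genes had 0 calls in edgeR and 0 at an unadjusted p under 0.05.

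**Figure D4:**
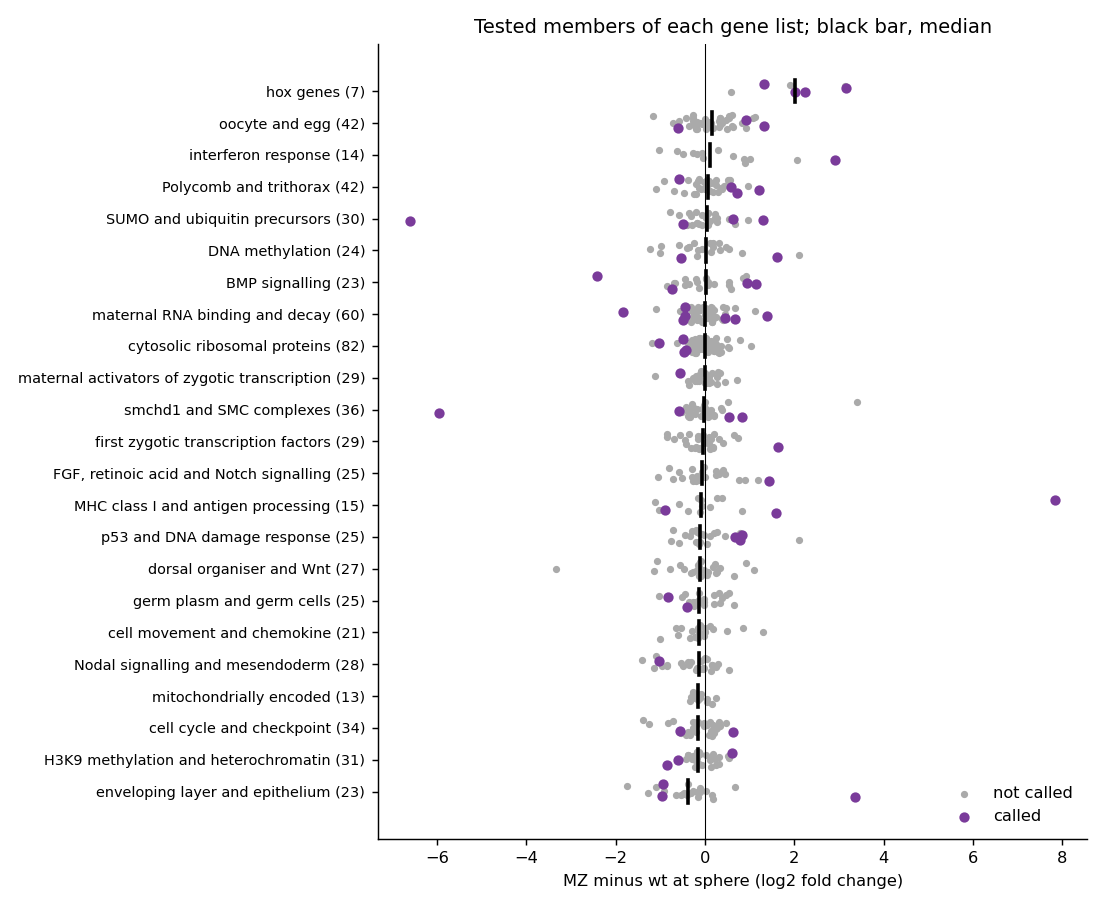
Log2 fold change, MZ smchd1 minus wt at sphere, of each tested member of each gene list; purple points were called, grey points were not, and black bars are list medians, with the number tested in brackets. Lists with 5 or more tested members are drawn, marker lists left out. Of these medians the enveloping layer lies lowest at -0.39 and the hox genes highest at 2.01.

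Strong changes were counted apart, as calls with a fold change above 8. There were 96 higher and 71 lower. In 73 of the 96 the wt libraries averaged under 0.5 CPM, and in 56 of the 71 the MZ smchd1 libraries did. These transcripts were close to absent in 1 genotype and passed the filter on low counts through the other. Their share thus partly follows from how genes were selected. By class, 49 of the higher and 29 of the lower ones were held and 11 and 13 falling, while 18 and 21 were zygotic. Held and falling genes passed the egg limit of 0.5 CPM in the mean of both genotypes, which 1 genotype or a single library can supply. Among these 102 held and falling genes, 24 had an 8-fold or larger spread between 4-8-cell libraries of the same genotype, against 1.5% of all held and falling genes. Among these was tmprss15, which codes for the protease enteropeptidase. It was at 56.4, 46.2 and 57.5 CPM in wt and 0.90, 1.78 and 1.35 CPM in MZ smchd1 sphere embryos, but at 101, 83.5 and 0.62 CPM in wt and 0.30, 52.2 and 0.13 CPM in MZ smchd1 4-8-cell embryos. At the earlier stage both genotypes held libraries with and without it. Whether such pools differ by the mothers that laid them was not tested.

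The sphere differences were then set beside those of the egg, in other libraries. Of the 1269 genes called at sphere 1167 were also tested at the 4-8-cell stage, and 880 of these (75.4%) had the same sign there, against 59.2% of all 15018 genes tested at both stages. Few were called at both: 80 of the 1167 (6.86%), 78 of them in the same direction, where 3.02% of all genes tested in the egg were called. Across the called genes, which are not independent replicates, the correlation of the log2 fold changes was 0.62. Over all 1662 falling genes the median log2 fold change was 0.32 at sphere and 0.01 in the egg. Of the 117 that were higher at sphere 6 were called in the egg. The change in genotype difference between stages itself passed for 182 of the 1167. These included 63 held genes that were higher and 70 that were lower at sphere, and 32 falling genes that were higher and 5 that were lower. Over all genes tested for such a change 1.97% passed. The 1167 were chosen by their difference at sphere, which is part of this change, so the 2 shares are not alike. None of the 100 zygotic calls could be tested in the egg, where they were too low.

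**Figure D5:**
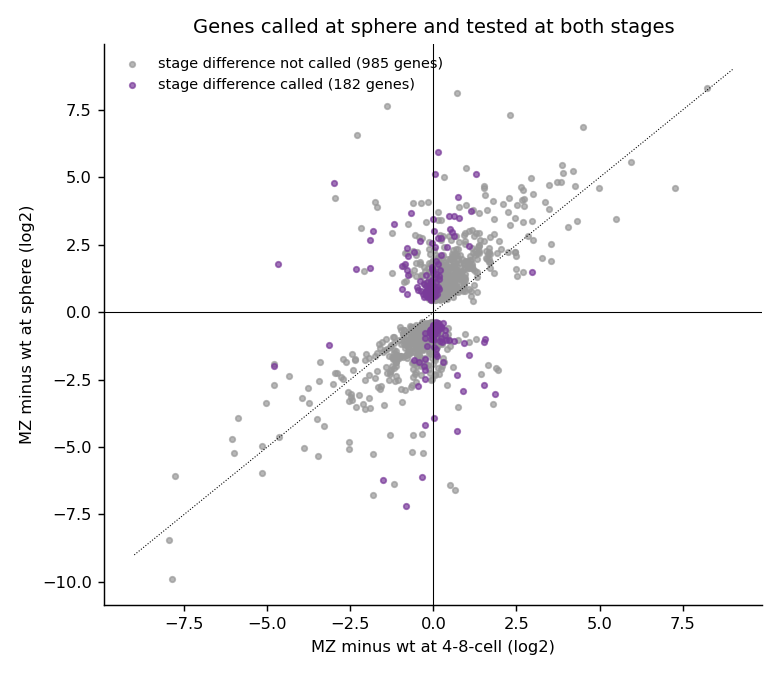
Log2 fold change of MZ smchd1 against wt at the 4-8-cell stage (horizontal) and at sphere (vertical) for the 1167 genes called at sphere and tested at both stages; the dotted line marks equal values, and purple points are the 182 genes whose difference changed between stages. Of the points 880 lie in the quadrants of equal sign; all were chosen by their call at sphere.

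For some genes the values pointed in opposite directions at the stages. TSPAN18, a tetraspanin gene, was at 10.8, 2.44 and 2.64 CPM in wt and 0.60, 0.41 and 0.97 CPM in MZ smchd1 4-8-cell embryos, but at 0.12, 0.06 and 0.18 CPM in wt and 4.00, 3.33 and 3.53 CPM in MZ smchd1 sphere embryos (interaction 7.83 on the log2 scale, edgeR adjusted p = 0.00855). The groups did not overlap at either stage, although the difference in the egg did not pass (edgeR adjusted p = 0.0782). The ion channel gene trpm6 was higher at sphere, by 1.77 (SE 0.34), and at 33.0, 26.8 and 0.78 CPM in wt against 0.70, 0.76 and 0.90 CPM in MZ smchd1 4-8-cell embryos. A single wt library thus overlapped with MZ smchd1 at that stage, where the difference did not pass (edgeR adjusted p = 0.0876), and the call at sphere held in 2 of the 6 fits that left out a library.

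Neighbouring genes were compared in the gene order of the GRCz12tu assembly, on which 11581 of the tested genes could be placed by symbol, 7.74% of them called. Of the genes that followed a called gene 8.27% were called. There were 74 neighbouring pairs with both genes called, 48 of them in the same direction. Next to smchd1 itself, mettl4, a methyltransferase gene, fell by 0.72 on the log2 scale (SE 0.14, edgeR adjusted p = 0.0295) and myl12.1, a myosin light chain gene, fell by 0.77 (SE 0.09, edgeR adjusted p = 0.00717); both were chosen after their values were seen. Of the 20 nearest genes 3 were called. Within 50 places to either side 6 of 70 were called (8.57%).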

How the data were processed

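RNA of zebrafish embryos was poly-A enriched and sequenced as paired ends. The authors mapped the reads to danRer10 with Ensembl annotation and deposited RSEM expected counts, TPM and FPKM per gene (the FPKM were not used); Bowtie is named in the submitters' processing notes, and tool versions are not given in the sources used here. Expected counts, as deposited, were rounded. The ribosomal RNA gene was removed and genes with a mean normalised count above 10 over the 6 sphere libraries were kept. Genotypes were compared with edgeR 4.0.16 (TMM scaling, quasi-likelihood test, R 4.3.3) and Benjamini-Hochberg adjustment. The same was done for the 4-8-cell libraries, and the interaction with stage was fitted to all 12. CPM are scaled by TMM. The script was tested on simulated counts. Sums over genes were compared by exact permutation of libraries.

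Sphere totals ranged from 7829742 to 17266229 expected counts. Symbols matched 25752 of 31462 identifiers. Where the symbol table gives capitals it is printed so, unless the zebrafish symbol has the same letters. Paralogs with shared symbols are uncertain. Coordinates, sequences and 1 named gene are not reported here.

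Named genes were smchd1, per class and direction the 4 called genes of smallest adjusted p with a proper symbol, no overlap between genotypes and at least 1 CPM, up to 4 called members of each list, and the 4 largest interactions. Members and lists were chosen with earlier results of these data known. Alternatives were other size factors, filters, DESeq2 1.42.0, limma 3.58.1 on log2 of the deposited TPM plus 1 or 0.1, a fit to all 12 libraries, a replicate block, other class limits and leaving out each library. Counting intervals are exact at 95% and cover counting error only.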

Additional observations from a re-analysis of the deposited data

Results flagged for a closer look

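For 24 of the named genes the difference between genotypes changed between the 4-8-cell and the sphere stage by the interaction test in edgeR (adjusted p under 0.05; 1.97% of all genes tested for it passed). Most named genes were chosen by their call at sphere, which is part of this change, and 4 by this test itself. Their number therefore cannot be read against the share of all genes. The values below are the log2 difference between genotypes at sphere minus that in the egg.

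Among zygotic and maternal-zygotic genes, the change was 3.88 for arhgap25, 4.41 for wipf3, 3.09 for stab2 and -4.73 for itga10. The immune receptor gene il17ra1a changed by 9.06; it was at 1.07, 0.75 and 1.60 CPM in wt and at 0 CPM in each MZ smchd1 4-8-cell library, so this fitted value depends on the prior count. At sphere it stood at 0.18, 0.94 and 0.47 CPM in wt and 1.94, 1.84 and 1.95 CPM in MZ smchd1 embryos and did not pass (edgeR adjusted p = 0.0809).

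Among falling genes the change was 1.38 for atp5if1a, 2.58 for lypla1, 3.87 for znf469, 0.61 for setdb1a, -1.89 for SNX1 and -2.10 for fto. The genotype difference of atp5if1a was already positive in the egg, where it was called (log2 fold change 1.07, edgeR adjusted p = 0.0350), and it was larger at sphere.

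Among held genes with a higher level in MZ smchd1 embryos at sphere it was 0.80 for BMPR1A, 0.81 for ddb2, 0.80 for CBX8, 7.83 for TSPAN18 and 6.45 for trpm6. For held genes with a lower level it was -1.32 for MAF1, -1.48 for gdf3, -1.20 for pfn1, -0.74 for nsmce4a, -0.52 for senp3b (a SUMO protease gene) and -0.50 for RPL18. It was -0.76 for wee2, a kinase gene that restrains Cdk1 in the egg, which stood at 418, 324 and 426 CPM in wt and 249, 277 and 270 CPM in MZ smchd1 sphere embryos. The aldehyde dehydrogenase gene aldh8a1 changed by -6.35. It was at 0, 0.35 and 0 CPM in wt and at 2.45, 5.39 and 2.97 CPM in MZ smchd1 4-8-cell embryos, and at 4.81, 4.14 and 2.26 CPM in wt against 1.81, 0.83 and 1.5 CPM in MZ smchd1 sphere embryos, where it did not pass (edgeR adjusted p = 0.0828).

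A signal in data left out of the comparisons came from the ribosomal RNA gene. It took 1.56% ± 2.09 (SD, n = 3) of counts in MZ smchd1 sphere libraries and 0.013% ± 0.008 (SD, n = 3) in wt sphere libraries. The lowest MZ smchd1 library (0.309%) was above the highest wt library (0.022%). At the 4-8-cell stage the means were 0.094% in wt and 0.060% in MZ smchd1 embryos.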

How the results depend on the processing

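DESeq2 called 2726 genes (1275 higher, 1451 lower, 1178 past 2-fold), with 113 zygotic genes lower, 81 maternal-zygotic genes higher and 128 lower, 858 held genes higher and 1147 lower, and 279 falling genes higher and 62 lower. The fit to all 12 libraries called 2591 (1306 higher, 1285 lower), with 870 held genes higher and 1084 lower and 347 falling genes higher and 64 lower. With limma on log2(TPM + 1) 296 genes were lower, 33 of them maternal-zygotic and 189 held, and on log2(TPM + 0.1) 282, with 32 and 181; the median over all genes moved to 0.13 and 0.15, and 67.9% and 67.8% of calls were higher. These 2 fits change the test, the unit and the scaling at once, and the class limits below change both limits. Without a scaling factor 321 held genes were lower and the held sum was 1.00 of wt; the median over all genes moved to 0.09. Without a filter 63 zygotic genes were higher and 110 lower. With a mean count above 50, 492 genes passed 2-fold, with 9 zygotic genes higher and 29 lower, 25 maternal-zygotic genes higher and 17 falling genes lower. Classes taken from wt libraries alone gave 12 maternal-zygotic genes higher and 96 lower, 240 held genes higher, and 283 falling genes higher and 19 lower; that rule selects on the wt values that enter the comparison. Class limits of 1 CPM and a ratio of 4 gave 8 maternal-zygotic genes higher and 12 lower, and 13 falling genes higher and 8 lower. Apart from the class limits, the cause of these shifts was not tested.

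Leaving out each library gave 84 to 1250 calls, 44 to 623 higher, 40 to 627 lower and 84 to 919 past 2-fold. By class the calls ranged from 5 to 43 higher and 6 to 70 lower (zygotic), 6 to 78 and 4 to 55 (maternal-zygotic), 24 to 434 and 19 to 469 (held), and 9 to 153 and 9 to 40 (falling). The sums ranged from 0.768 to 0.901 of wt (zygotic), 0.824 to 0.956 (maternal-zygotic), 0.934 to 0.953 (held) and 1.21 to 1.40 (falling). The lowest counts came without MZ smchd1 library 2 or 3. Of 86 named genes called, 27 passed in all 6 of these fits. No named gene changed sign past the threshold under the alternatives run.

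Whether the replicate numbers pair the libraries cannot be decided from 3 libraries per genotype. Deviations of same-numbered libraries correlated at 0.0321, 0.0011 and 0.328. The last was the highest of all pairs, but not every library correlated best with its own number. A fit with the replicate number as a block called 1248 genes, 592 higher and 656 lower, of which 957 were called in the same direction without the block.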
